A study of Felis catus with 77 samples.

Results

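Adipose restricted genes were defined here as the 100 genes whose level in adipose tissue stood furthest above the other tissues around feline fibrosarcoma (FSA). Counts were divided by a size factor for each library, and the median normalized count of each gene was taken per tissue. Of 19587 Ensembl gene identifiers, 8758 had a median of at least 50 in adipose tissue (AT), and from these the 100 with the largest ratio of AT to the highest of the other tissues were kept, with 1 added to both medians. The RNA came from formalin-fixed, paraffin-embedded tissue of cats with FSA, from which areas were isolated by laser-capture microdissection (LCM). The 77 libraries comprised 30 of tumor (T), 16 of AT, 11 of connective tissue (CT) and 20 of skeletal muscle (SM), with at most 1 library of a tissue per cat. No drug treatment or genetic change separates the groups, and every normal tissue was taken next to a tumor, so tissue of cats without FSA was not measured.

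White adipose tissue stores triglycerides in the lipid droplets of adipocytes, releases fatty acids and glycerol by lipolysis when energy is needed, and secretes hormones such as leptin and adiponectin. The nuclear receptor PPARG and the factor CEBPA drive the program of the mature adipocyte, which includes droplet coat proteins, lipases and fatty acid binding proteins. Adipose tissue also holds vessels, fibroblasts and macrophages, and connective tissue under the skin commonly contains scattered adipocytes. The deposited files give identifiers without symbols, and the reference table at hand matched 0 of them. The members could therefore not be assigned to these pathways, and the AT label could not be checked against adipocyte markers. Members are given below by identifier where single genes are described, and levels are compared between tissues only, since gene lengths were not available.

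The libraries held between 847003 and 19099337 counts, and AT libraries were shallower (median 2908520) than T libraries (8405498) and SM libraries (median 12291936). In the AT library of cat 6, 27.8% of the counts fell on the 100 genes chosen for SM by the same rule, against at most 0.794% in the other AT libraries. T libraries of cats 11 to 17 mostly showed counts for more of the members than T libraries of other cats, and these cats (5 AT, 3 CT, 3 SM and 7 T libraries) are marked below. The AT library of cat 5 is called tumor in 1 label and AT in its title and was used as AT. Across genes, its log2 CPM (counts scaled to the library total) correlated at 0.91 with the average of AT, at 0.87 with that of CT and at 0.79 with that of T.

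The members' ratios ran from 4.33 to 75.5, with a median of 6.83, and 25 of 100 exceeded 10. These ratios chose the genes and are given as a description. At the edge of the list, the last 5 members had ratios of 4.46 to 4.33 and the 5 genes just outside had ratios of 4.31 to 4.14. By comparison, the same rule gave 100 CT genes with a median ratio of 7.99, 100 T genes with a median ratio of 11.3 and 100 SM genes with a median ratio of 730, and 0 genes of these lists were among the members. The AT ratios were thus close to those of CT and far below those of SM.

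CT came closest to AT for most members. The highest of the other medians was that of CT for 79 members, of SM for 15 and of T for 6. The CT median was 13.5% of the AT median for the middle member (interquartile range 8.89% to 18.3%), the SM median 3.71% (0.146% to 10.1%) and the T median 3.26% (0.127% to 8.02%). No member had a CT median of 0, whereas 21 had an SM median of 0 and 19 a T median of 0. A median of 0 does not mean that the gene was without counts, because in T and SM each member had a count in at least 1 library. A count of 0 in a library allows up to 3 counts, for counting error alone.

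**Figure D1:**
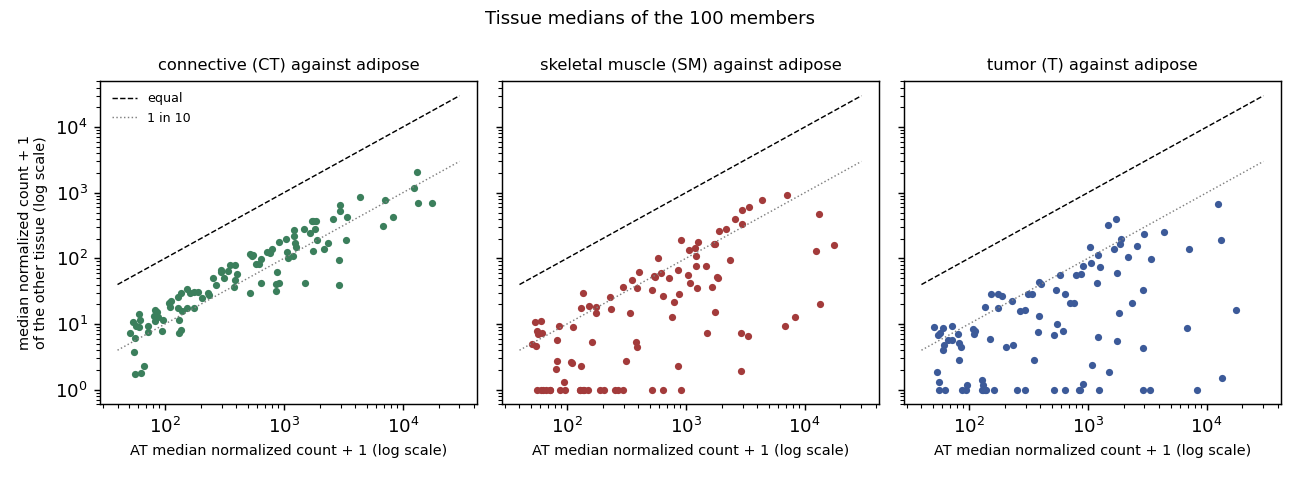
Median normalized count plus 1 of each of the 100 members in CT, SM and T (vertical, log scale) against AT (horizontal, log scale), with lines at equal levels and at 1 in 10. CT medians keep to a band below the AT medians, while 21 members in SM and 19 in T lie at a median of 0.

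The members together took 1.95% to 6.17% of the counts of an AT library, with a median of 3.62% (n = 16; 3.65% without cat 6). The share was lowest in cat 17 and highest in cat 27. In CT it was 0.248% to 0.858%, with a median of 0.430% (n = 11), in T 0.0945% to 0.325% with a median of 0.141% (n = 30), and in SM 0.0545% to 0.449% with a median of 0.0819% (n = 20). All AT libraries lay above all others, an order that the choice of members favors, whereas CT, SM and T overlapped. The CT library of cat 8 held the 0.858%, and the next CT library was at 0.504%. The SM library of cat 30 was the highest in SM, the next was at 0.242%, and it also had the lowest share of counts in the SM genes (30.9% against a median of 51.2%). In bulk libraries such as these, fewer adipocytes and less RNA per adipocyte cannot be told apart.

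**Figure D2:**
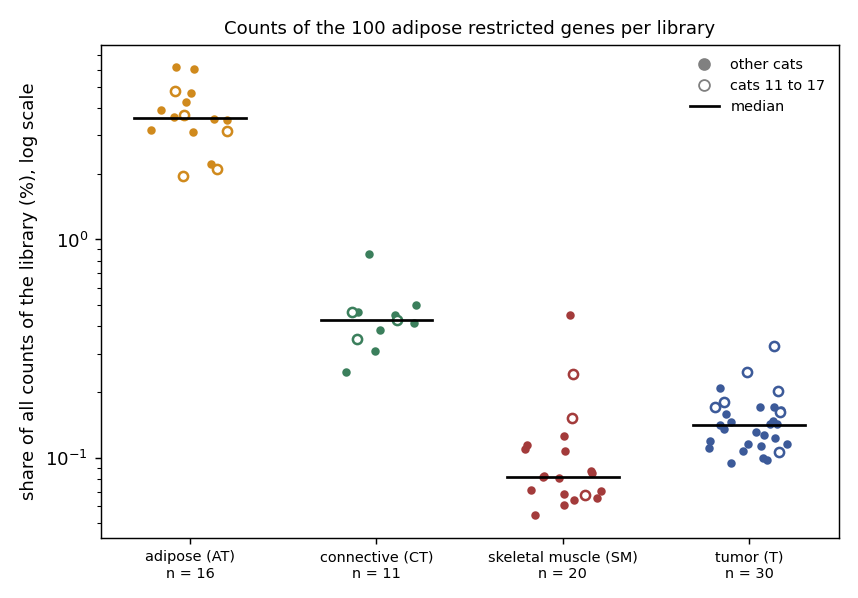
Share of all counts of a library that fell on the 100 members (vertical, log scale) for each library of AT, CT, SM and T, with the tissue median as a line and cats 11 to 17 as open points. AT spans 1.95% to 6.17%, and the single high libraries are cat 8 in CT (0.858%) and cat 30 in SM (0.449%).

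The tissues were also compared within cats. The AT share was 4.54 to 14.3 times the CT share of the same cat in 5 cats (median 9.44), 7.90 to 63.9 times the T share in 16 cats (median 28.3) and 19.5 to 92.0 times the SM share in 10 cats (median 49.3). Between the tissues that the rule did not set against each other, the share in CT exceeded that in T of the same cat in 11 of 11 cats, by 1.18 to 6.71 times (median 2.72). CT exceeded SM in 7 of 8 cats (0.920 to 12.5 times, median 4.49). SM exceeded T in 2 of 20 cats (0.261 to 2.71 times, median 0.680), and a few muscle genes take a large part of each SM total. With the 50 most abundant SM identifiers left out of the total, the median share was 0.192% in SM and 0.150% in T, and SM exceeded T in 17 of 20 cats (median 1.43 times). On that total AT was 11 to 39.1 times SM (median 22.9) and CT was 0.613 to 5.49 times SM, above it in 7 of 8 cats (median 1.93), while AT over T had a median of 29 and CT over T one of 2.68. The place of SM relative to T therefore depends on the total used.

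Counts for 91 members were present in all 16 AT libraries. An AT library had a count for 93 to 100 members (median 100), a CT library for 64 to 100 (median 93), an SM library for 38 to 100 (median 76) and a T library for 58 to 100 (median 75.5). Thinned by expectation to 847003 counts, the smallest total, the medians were 99.6, 85.6, 55.8 and 59.3. T libraries of cats 11 to 17 had counts for 82 to 100 members (n = 7) and those of the other cats for 58 to 85 (n = 23), at lower or similar totals. The part of these 7 cats in the results below was examined by leaving them out.

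**Figure D3:**
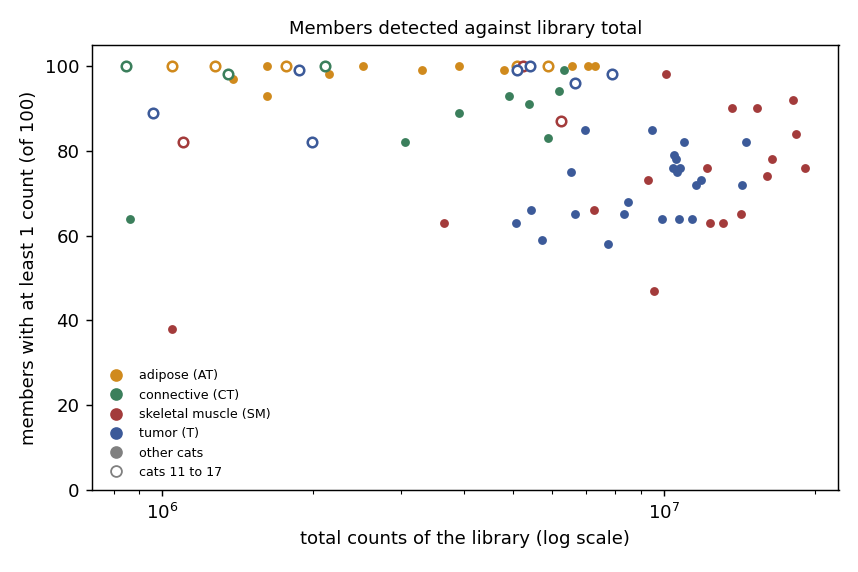
Number of the 100 members with at least 1 count (vertical) against the total counts of the library (horizontal, log scale), colored by tissue, with cats 11 to 17 as open points. AT libraries stay at 93 or more at every depth, and the T libraries of cats 11 to 17 reach 82 to 100 where T libraries of other cats reach 58 to 85.

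Among AT libraries the members varied more than other genes. The standard deviation of log2 CPM over the 16 AT libraries had a median of 0.96 for the members (0.47 to 2.44) and of 0.66 for all 8758 genes with an AT median of at least 50. The spread was wider at low levels, and the members stood above all genes in each range of level. At an AT median of 50 to under 100 the medians were 1.45 for 20 members and 0.99 for all genes, at 100 to under 1000 they were 0.93 for 46 members and 0.59, and at 1000 and over they were 0.77 for 34 members and 0.49. The members also tended to rise and fall together, with a median pairwise Pearson correlation of 0.37 against 0.03 for all 8758 genes, and 82.4% of pairs above 0 against 53.1%. For 69 members the correlation with the mean of the other members exceeded 0.5, and for 6 it was below 0. These correlations over 16 libraries share library, depth and tissue area and are a description. Without cats 11 to 17 the median correlation was 0.35 (n = 11) and without cat 6 it was 0.37 (n = 15). The mean log2 CPM over the members was lowest in cat 23 (5.21) and highest in cat 27 (7.15). The share of counts in the 100 genes that the same rule gave for CT ranged from 0.0603% (cat 6) to 0.508% (cat 17) over the AT libraries. The AT libraries of cats 17, 23 and 16 had the highest such shares (0.508%, 0.506% and 0.330%) and the lowest shares of the members (1.95%, 2.22% and 2.11%). In the other libraries the values did not follow this order throughout, with 0.0944% in cat 26, where the members took 3.10%, and 0.181% in cat 18, where they took 6.03%. The share of the 100 genes chosen for T was also highest in the AT of cats 17 and 16 (0.709% and 0.624%). The part of CT and T genes in the spread of the members was not tested.

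The relative levels of the members in a library were also compared with those in AT. Spearman's rho across the 100 members between a library and the AT medians was 0.843 to 0.969 in AT (median 0.946) and 0.307 to 0.911 in CT (median 0.823). In SM it was 0.160 to 0.888 (median 0.619) and in T 0.0444 to 0.499 (median 0.399). The AT medians include the AT libraries themselves, and the rule ties the CT median to the AT median for the 79 members whose highest other tissue is CT, so the order of these values is in part set by the choice of members. Genes are not independent replicates, and no test was made.

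**Figure D4:**
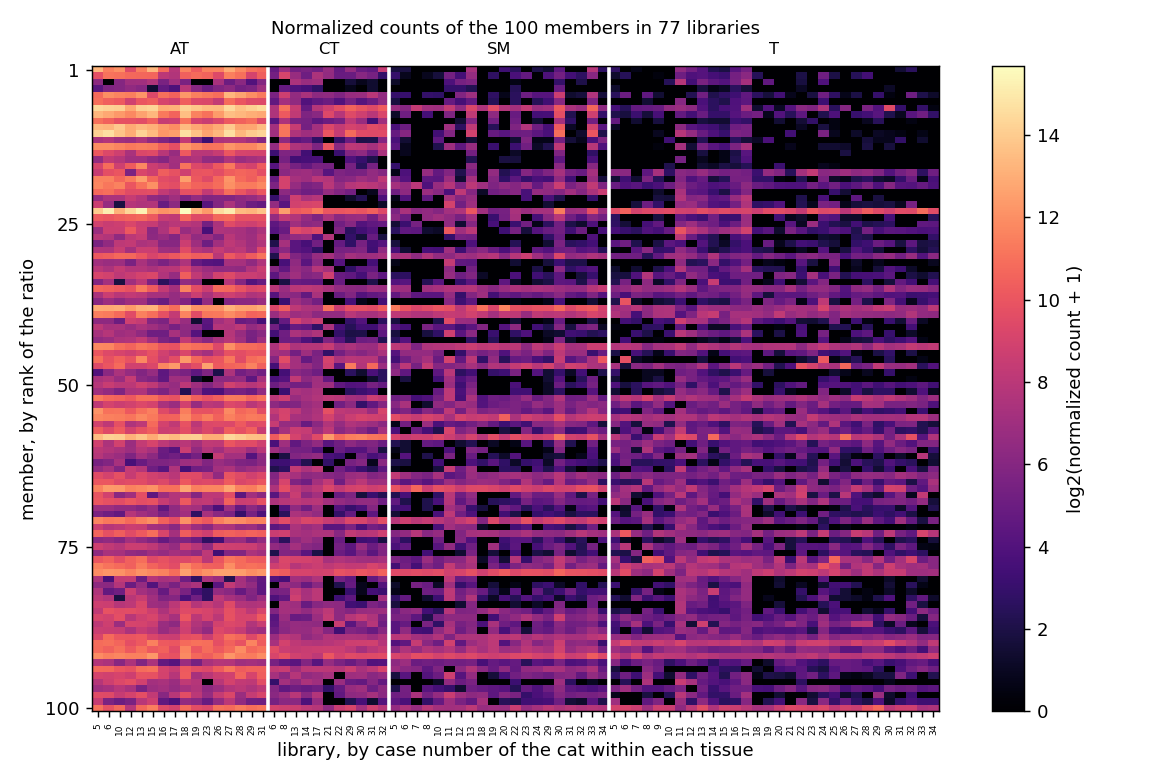
Log2(normalized count + 1) of the 100 members (rows, by rank of the ratio) in 77 libraries (columns, by tissue and case number). The T and SM blocks hold many dark cells (values at or near 0), while the columns of cats 11 to 17 in T and of cat 30 in SM are brighter.

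The member with the largest ratio was ENSFCAG00000035912, at 75.5. Its normalized counts ran from 230 to 10248 in AT (median 2924), from 22.2 to 349 in CT (median 37.7), from 0 to 225 in SM (median 0.902) and from 0 to 84.0 in T (median 0). SM was without a count in 10 of 20 libraries and T in 19 of 30. The second, ENSFCAG00000008437, had a ratio of 36.1 and ran from 207 to 2810 in AT (median 1519), from 6.48 to 565 in CT (median 41.1), from 0 to 99.6 in SM (median 6.24) and from 0 to 71.9 in T (median 0.887). For both the lowest AT library was that of cat 17. The CT library of cat 32 exceeded it for the first member. For the second, the CT library of cat 8 (565) exceeded the AT libraries of cats 17 (207), 16 (264) and 29 (517). Over all members, every AT library lay above every T library for 43 members (1.13% of all 8758 genes), above every SM library for 35 (1.50%) and above every CT library for 24 (0.651%). The rule used these contrasts, so nothing is read from the counts.

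As a description with no test, the fitted log2 fold change of AT over T had a median of 3.93 over the members (-0.06 over all genes fitted), that over SM a median of 3.59 (0.23 over all genes) and that over CT a median of 2.48 (-0.02 over all genes). The fit uses means where the rule uses medians, and 1 member had a negative fitted value against CT (-0.43).

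The contrasts among T, CT and SM were used by the rule only through the highest of their medians, so their order was not fixed by it. A gene with a high median in T, CT or SM beside AT could not become a member, however. The number of members called higher in a tissue is thus in part held down by the choice. The shares of all genes given beside the counts carry no such limit and are not a matched background. Each pair of tissues was fitted over all genes with edgeR's quasi-likelihood test and Benjamini-Hochberg adjustment, and a gene was called at an adjusted p under 0.05 and a log2 fold change beyond 1 in size. The first question was whether the members are lower in the tumor than in the connective tissue around it. In T vs CT, 34 of the 95 members that passed the filter on low counts were lower in T (6.52% of all 14974 genes tested were called lower) and 0 were higher (9.06% of all genes). The called log2 fold changes ran from -7.07 to -1.11. At an unadjusted p under 0.05, 50 members were lower (12.3% of all genes) and 0 higher (24.6%). DESeq2 called 40 lower (8.73% of all genes) and 0 higher (6.51%). With all 100 members fitted without the filter, 42 were lower (7.44% of all genes) and 0 higher (5.15%). The median log2 fold change was -1.35 over the members and 0.14 over all genes. With the cat as a block in the 11 cats with both tissues, 35 of 82 members fitted were lower (7.11% of all genes) and 0 higher (6.32%). Without cats 11 to 17, 43 of 86 members fitted were lower (8.08% of all genes) and 1 was higher (11.6%). Within cats, CT lay above T in at least 10 of 11 cats for 30 members (10.8% of all 8758 genes).

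The members with the largest decrease in T vs CT were ENSFCAG00000013885 and ENSFCAG00000000419. ENSFCAG00000013885 had normalized counts of 39.3 to 2266 in CT (median 429) and of 0 to 75.6 in T (median 0), with no count in 19 of 30 T libraries. Its level in AT was 3894 to 15378 (median 8219). In T its highest value was in cat 11, and CT and T overlapped only in the range of the lowest CT library, that of cat 14. The log2 fold change was -7.07 (SE 0.80, adjusted p = 2.4e-08 by edgeR's quasi-likelihood test), and CT was above T in 11 of 11 cats. ENSFCAG00000000419 ran from 123 to 2297 in CT (median 704) and from 0 to 235 in T (median 0.495), against 5045 to 26270 in AT (median 13467). Its CT and T values overlapped through the lowest CT libraries and the tumor of cat 11. Its log2 fold change was -5.92 (SE 0.85, adjusted p = 1.7e-06 by edgeR's quasi-likelihood test), with CT above T in 11 of 11 cats. Without cats 11 to 17 the log2 fold changes were -11.38 and -8.78. Most T libraries had few or no counts, and how far these sizes depend on the prior count of the fit was not tested.

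The second question was how T compares with SM, a tissue with fewer counts of the members than CT. Of 79 members that passed the filter, 28 were lower in T (16.9% of all 13771 genes tested) and 12 were higher (24.1% of all genes), by edgeR's quasi-likelihood test. With all 100 fitted, 34 were lower (12.3% of all genes) and 11 higher (22.3%). With the cat as a block in the 20 cats with both tissues, 26 of 65 members fitted were lower (19.2% of all genes) and 10 higher (25.4%). The median log2 fold change was -0.42 over the members and 0.24 over all genes. The direction depended on scaling. With library totals only, without TMM normalization, 12 members were lower (5.45% of all genes) and 23 higher (61.7%), and the medians were 0.64 over the members and 1.42 over all genes. The members' median lay below that of all genes under both scalings. Within cats, SM lay above T in at least 19 of 20 cats for 11 members, near the 13.9% of all genes.

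Among the members lower in T than in SM, the same pair led. ENSFCAG00000013885 was at 0 to 1199 in SM (median 11.8) and had a log2 fold change of -4.75 (SE 0.93, adjusted p = 1.7e-05 by edgeR's quasi-likelihood test). ENSFCAG00000000419 was at 0 to 1910 in SM (median 19.1), with a log2 fold change of -3.85 (SE 0.92, adjusted p = 3.2e-04 by edgeR's quasi-likelihood test). With DESeq2 ENSFCAG00000013885 was at -3.29 (adjusted p = 0.0068 by the Wald test), and ENSFCAG00000000419 was at -1.95 and not called (adjusted p = 0.0502). Without TMM the log2 fold changes were -3.54 and -2.65 respectively. SM and T overlapped for both members, and SM was above T of the same cat in 13 of 20 cats for each, with equal values in 6 cats for the former and 3 for the latter. Neither passed the filter in the fit with the cat as a block or without cats 11 to 17. The highest SM value of both came from cat 30. Without that library ENSFCAG00000000419 was at -2.80 (adjusted p = 0.0067 by edgeR's quasi-likelihood test), and ENSFCAG00000013885 did not pass the filter.

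The members with the largest increase in T over SM were ENSFCAG00000016311 and ENSFCAG00000004167. ENSFCAG00000016311 ran from 0 to 978 in T (median 4.65), from 0 to 66.8 in SM (median 0), from 0 to 123 in CT (median 8.19) and from 0 to 129 in AT (median 70.6). The tumors of cats 6 and 24, at 978 and 285, exceeded every AT library, and the next tumor was at 52.8, below the AT median. The log2 fold change of T over SM was 3.90 (SE 1.03, adjusted p = 9.98e-04 by edgeR's quasi-likelihood test), and 2.52 without the tumor of cat 6 (adjusted p = 0.014). ENSFCAG00000004167 ran from 0 to 224 in T (median 5.99), from 0 to 46.7 in SM (median 1.05) and from 0 to 329 in AT (median 80.2). Its log2 fold change was 2.56 (SE 0.85, adjusted p = 0.0080 by edgeR's quasi-likelihood test). SM and T overlapped for both members. SM was above T in 5 of 20 cats for the former and in 4 of 20 for the latter, with equal values in 2 cats for each.

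The third question was whether CT and SM, both normal tissues beside the tumor, differ in the members. In CT vs SM, 32 of the 78 members that passed the filter were higher in CT (23.8% of all 12443 genes tested) and 0 were lower (15.3% of all genes), by edgeR's quasi-likelihood test. At an unadjusted p under 0.05, 40 were higher (35.2% of all genes) and 2 lower (23.8%). DESeq2 called 27 higher (24.1% of all genes) and 0 lower (15.7%). With all 100 fitted, 25 were higher (19% of all genes) and 0 lower (11.3%), which is nearer to the background. The median log2 fold change was 1.34 over the members and 0.30 over all genes, and with library totals only it was 2.38 against 1.50, with 69 of 78 members higher (64.5% of all genes) and 0 lower (4.88%). The count fell when any single CT library other than that of cat 6 was left out, and it fell most without that of cat 8. Without the CT library of cat 8, 17 of 81 members fitted were higher, or 21% beside 19.7% of all genes, and 2 were lower (16.8% of all genes). Without that of cat 32, 21 of 83 were higher, or 25.3% beside 20% of all genes, and 1 was lower (16.9%). Without that of cat 29, the values were close to these, with 22 of 84 higher, or 26.2% beside 19.9% of all genes. The members called higher were thus near the background without the library of cat 8. In the 8 cats with both tissues, 31 of 74 members fitted were higher with the cat as a block (18% of all genes) and 0 lower (16%). Without the block, 18 of 74 were higher (17.3% of all genes). CT lay above SM in at least 7 of 8 cats for 32 members, near the 33.2% of all genes.

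The members with the largest increase in CT over SM were ENSFCAG00000036885 and ENSFCAG00000041482. ENSFCAG00000036885 ran from 0 to 166 in CT (median 28.8), from 0 to 53.9 in SM (median 0) and from 103 to 1175 in AT (median 515). It had no count in 15 of 20 SM libraries and in 25 of 30 T libraries. The log2 fold change was 3.08 (SE 0.98, adjusted p = 0.0085 by edgeR's quasi-likelihood test), with CT above SM in 8 of 8 cats. It was 2.45 without the CT library of cat 32 (adjusted p = 0.042). ENSFCAG00000041482 ran from 51.0 to 1027 in CT (median 189), from 0 to 289 in SM (median 5.65) and from 817 to 5458 in AT (median 3311). Its log2 fold change was 2.86 (SE 0.80, adjusted p = 0.0029 by edgeR's quasi-likelihood test), with CT above SM in 7 of 8 cats. CT and SM overlapped for both members. In the cats with both tissues and without a block neither was called (log2 fold changes 2.32 and 2.47, adjusted p = 0.104 and 0.0689 by edgeR's quasi-likelihood test), whereas with the block both were (4.36 and 4.95, adjusted p = 0.017 and 0.0068).

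**Figure D5:**
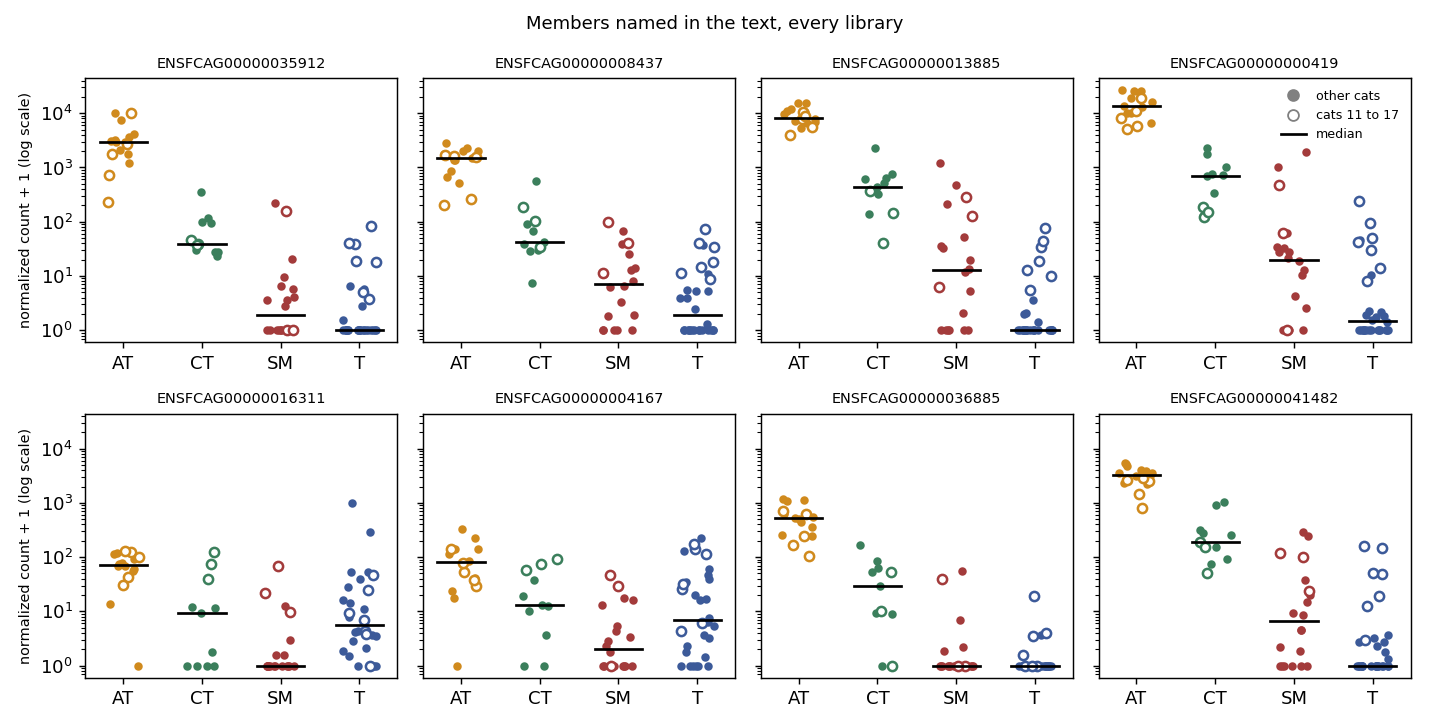
Normalized count plus 1 (log scale) in every library for the 8 members named in the text, by tissue, with the tissue median as a line and cats 11 to 17 as open points. The tumor of cat 6 (978) lies above all AT libraries for ENSFCAG00000016311, whereas for ENSFCAG00000013885 all AT libraries (3894 and above) lie above every other library.

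The 3 tests share libraries and are not independent of each other. Of the 100 members, 5 in T vs CT, 21 in T vs SM and 22 in CT vs SM were below the filter on low counts, and 61, 39 and 46 passed it without being called. A member that was not called may still differ by an amount that these libraries could not show.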

How the data were processed

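The deposited files hold, per library, raw whole-number counts for each Ensembl gene, which the authors had not normalized. The study's methods describe trimming with Trimmomatic and assignment with Kallisto to the annotation of the cat genome Felis_catus_9.0, whereas the submitters' processing notes list STAR and featureCounts, so the tool behind the counts is uncertain. Reads shared by near-identical or overlapping genes may have been split between them. Tissue and case number came from the titles.

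Size factors were medians of ratios over the 6527 genes with a count in every library. Tests were run in R 4.3.3 with edgeR 4.0.16 (TMM normalization, filterByExpr by group, quasi-likelihood test, Benjamini-Hochberg adjustment over all genes tested) and DESeq2 1.42.0 as an alternative. Log2 CPM used library totals adjusted by TMM and a prior count of 2. Libraries of a tissue came from different cats, so p-values measure the spread between cats. The main fits had no term for the cat, so libraries of the same cat in both tissues entered as independent. The pairing was used only in the fits with the cat as a block. Levels, shares and detection were computed with pandas 2.3.3, numpy 2.4.6 and scipy 1.17.1 (Python 3.11.15).

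Libraries of 1 case number came from the same cat. Their deviations from the tissue means correlated with a median of 0.216 for T and CT (11 pairs), 0.118 for T and SM (20 pairs) and 0.148 for CT and SM (8 pairs), against 0.0460, 0.0185 and 0.0397 between cats. Tested on simulated data with 200 changed genes at a log2 fold change of 2, the fit recovered 71.5% for T vs CT (14974 genes), 86.5% for T vs SM (13771 genes) and 75.5% for CT vs SM (12443 genes). The changed genes were drawn at random from all genes fitted. The simulated libraries shared 1 mean profile, without differences in tissue composition or an effect of the cat. The recovery of members with few counts was therefore not tested.

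The members and the gene lists were chosen with earlier results of these data known. The lists of adipose pathways and cell type markers could not be applied without symbols. The members named were the 2 with the largest ratio and, in each test and direction with calls, the 2 called members with the largest fold change. Alternatives were other normalizations, filters, fits, thresholds and libraries left out, listed with their values below.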

Additional observations from a re-analysis of the deposited data

How the results depend on the processing

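Of 264 alternative values, 233 were labelled the same as the main value. For the fold change of a named member, this meant the same direction and side of the threshold. A count of calls or of members chosen again had to lie within a set factor of the main count. For example, 44 lower beside 34 in T vs CT and 25 higher beside 32 in CT vs SM were labelled the same. Medians had to move by less than the replicate spread. The fold change of no named member changed sign. The balance of calls in T vs SM turned with the scaling. The cause of the changes below was not tested. In T vs CT, 52 members were lower with all 4 tissues in 1 fit (7.75% of all genes), and 1 was higher without cats 11 to 17 (11.6%). Without each CT library in turn, 32 to 37 were lower (5.92% to 7.48% of all genes) and 0 higher (6.37% to 9.30%). In T vs SM without TMM, 23 were higher (61.7% of all genes) and 12 lower (5.45%). In CT vs SM, 69 were higher without TMM (64.5% of all genes), and 18 in the cats with both tissues without a block (17.3%). Without each CT library in turn, 17 to 33 were higher (19.1% to 23.3% of all genes) and 0 to 2 lower (14.9% to 17.3%), and 1 was lower without libraries under 2000000 counts (17.4%) or with all 4 tissues in 1 fit (13.3%). Leaving out the SM library of cat 30 gave 37 higher in CT vs SM (25% of all genes), and 13 higher (24.7%) and 26 lower (17%) in T vs SM. With the cat as a replicate block, 35 of 82 members fitted were lower in T vs CT (7.11%). Of 65 fitted in T vs SM, 10 were higher (25.4%) and 26 lower (19.2%), and 31 of 74 were higher in CT vs SM (18%). ENSFCAG00000000419 lost its call in T vs SM with DESeq2 (log2 fold change -1.95, adjusted p = 0.0502), and in the cats with both tissues without a block ENSFCAG00000036885 (2.32, adjusted p = 0.104) and ENSFCAG00000041482 (2.47, adjusted p = 0.0689) lost theirs in CT vs SM by edgeR's quasi-likelihood test. A member that did not pass the filter of an alternative has no value there. The median log2 fold change of AT over T was 4.61 with the block and 4.57 without cats 11 to 17, and that of AT over SM 4.64 without TMM and 4.52 with the block. At an AT median of at least 200 the rule kept 64 of the members, a number fixed beforehand, since a higher limit only removes members below it. Between 75 and 97 were chosen again under the others. Without the 5 members with the most counts the median AT share was 2.19%, and the SM share was 0.192% of the total without the 50 most abundant SM identifiers. With at least 10 counts, the median numbers of members detected were 98 in AT, 80 in CT, 58 in SM and 59 in T. With at least 1 count, those expected at the smallest total were 55.8 in SM and 59.3 in T. The single libraries left out, other than the AT library of cat 5, the AT fits without filter and the fits of the same cats without a block were added after the data were seen, as were the ratios within cats on the total without the SM identifiers and the spread by range of level. With 847003 counts in the shallowest library, members at a low level cannot be told from absent ones there.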
